A study of Mus musculus with 9 samples.

Results

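Transcripts of 58 genes for DNA repair and the DNA damage checkpoint were followed through the postnatal maturation of mouse cardiomyocytes. The members were chosen by gene symbol, from the Fanconi anemia, Brca, Rad, Xrcc, Msh, Mlh, Ercc and Parp families together with Atm, Atr, Chek1, Chek2, Trp53, Trp53bp1, Ogg1, Nbn, Mre11a, Brip1, Blm and Wrn. All 58 stood in the table of 15824 genes, and all 58 had enough counts to be tested. RNA sequencing libraries from cardiomyocytes of CD-1 mice, an outbred strain, were made at postnatal day 1 (P1), P14 and P56, with 3 libraries per age. Hearts were pooled for each library, with 12 hearts in a pool at P1 and 6 to 7 in a pool at the later ages. The RNA was depleted of ribosomal RNA. The labels name no transgene or drug, and their protocols describe both the isolation of whole cells and the sorting of nuclei that carry Pcm1, without settling which was used. The protocols also mention hearts taken 3 days after surgery, and no group of these 9 libraries is labelled as operated. Totals were 36619799 to 58538025 counts per library, and each of 10 cardiomyocyte markers was measured.

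DNA breaks made during replication are repaired by homologous recombination, which copies the intact sister chromatid and so works in cells that replicate their DNA, while end joining can act in any phase of the cell cycle. Crosslinks between the strands are unhooked by the Fanconi anemia proteins, mismatches are removed by the MutS and MutL homologs, and bulky or oxidized bases by excision repair. The kinases Atm and Atr sense damage and signal through Chek2, Chek1 and p53. Most mouse cardiomyocytes leave the cell cycle within the first weeks after birth.

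Levels are given as CPM (counts scaled to library size) per library and compared across ages for the same gene. Changes are log2 differences ± standard error (SE) from edgeR's quasi-likelihood test, with p-values adjusted by Benjamini-Hochberg over all 15817 genes tested and a threshold of 0.05. From P1 to P14 the members fell more often than they rose. At P14 against P1, 45 of 58 members were called (77.6%, against 55.9% of all genes tested), of which 38 fell (65.5%, against 27.5%) and 7 rose (12.1%, against 28.4%). The fall was by a log2 of at least 1 in 17 members (29.3%, against 9.38% of all genes), and no member rose by as much. The median log2 change of the members was −0.56, beside 0.00 for all genes. The P14 libraries lay below all P1 libraries in 41 members (70.7%, against 32.9% of all genes).

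From P14 to P56 the members split. At P56 against P14, 35 members were called (60.3%, against 56% of all genes), of which 18 fell (31%, against 28.5%) and 17 rose (29.3%, against 27.5%), shares close to those of all genes. A fall by a log2 of at least 1 was called in 8 of them (13.8%, against 14.9%), and a rise by as much in none (against 6.19%). Over the whole span, at P56 against P1, 40 were called (69%, against 62.6%), with 31 lower (53.4%, against 31.7%) and 9 higher (15.5%, against 30.9%). The members were lower by a log2 of at least 1 in 22 cases at P56 (37.9%, against 16.2%), and the P56 libraries lay below all P1 libraries in 35 (60.3%, against 37.1%). Some difference among the ages was called in 49 members (84.5%, against 78%). In bulk libraries such as these, fewer cells of a type and less RNA per cell cannot be told apart.

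**Figure D1:**
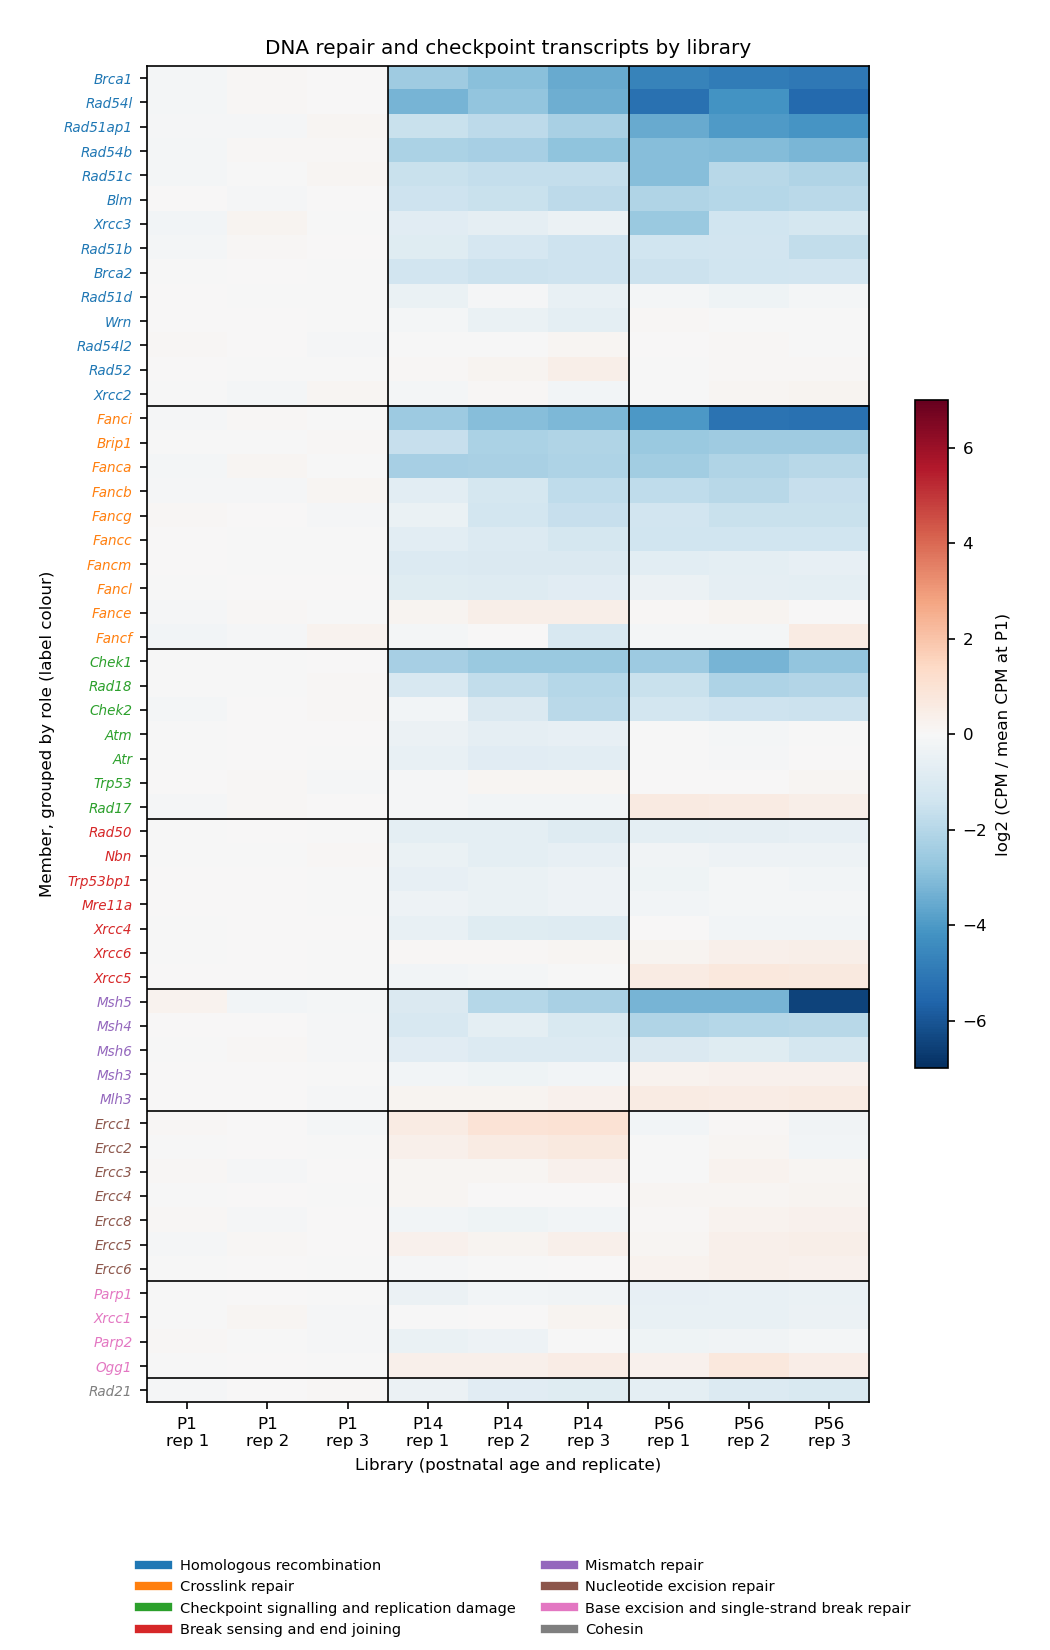
Level of 55 members (rows, grouped by role) in each of the 9 libraries (columns, 3 each at P1, P14 and P56), as the log2 ratio of its CPM to its mean CPM at P1. Recombination and crosslink repair genes and Msh5 hold the lowest ratios, at P56, and several checkpoint and end joining genes are lowest at P14.

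The pair of intervals divides the members into patterns. A group of 13 fell in both intervals (22.4%, against 7.16% of all genes), among them Blm, Brca1, Brip1, Fancc, Fanci, Msh4, Parp1, Rad51ap1 and Rad54l. Another 12 fell from P1 to P14 and rose again by P56 (20.7%, against 8.91%), among them Atm, Atr, Fancl, Fancm, Mre11a, Msh3, Nbn, Trp53bp1, Wrn and Xrcc4. A further 13 fell by P14 and were not called after it (22.4%, against 11.4%), among them Brca2, Chek1, Chek2, Fanca and Rad50. Mlh3 rose in both intervals, and Ercc1, Ercc2 and Fance rose and then fell. No call was made in either interval for 7 members, Ercc3, Ercc4, Fancf, Parp2, Rad54l2, Trp53 and Xrcc2 (12.1%, against 22.8%).

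Of the 15 homologous recombination genes, 11 fell and 1 rose at P14 against P1 (all genes tested: 27.5% fell, 28.4% rose). In the second interval, at P56 against P14, 8 fell and 1 rose (all genes: 28.5% and 27.5%). At P56, 10 were lower than at P1 and none was higher (all genes: 31.7% and 30.9%), with a median log2 change of −1.62. Brca1 encodes a ubiquitin ligase subunit that directs breaks into recombination. It stood at 11.2, 13.2 and 12.5 CPM at P1, at 2.17, 1.62 and 1.08 CPM at P14, and at 0.476, 0.413 and 0.379 CPM at P56. The ages did not overlap, and the mean at P56 was 3.43% of that at P1. By edgeR's quasi-likelihood F test, Benjamini-Hochberg adjusted, Brca1 fell by 2.92 ± 0.21 at P14 against P1 (log2 ± SE, adjusted p = 3.41e-06) and by a further 1.94 ± 0.26 at P56 against P14 (adjusted p = 0.0002).

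Rad54l and Rad54b encode motor proteins that act during recombination, and Rad51ap1 a protein that stimulates strand pairing. Rad54l had 5.44, 6.22 and 6.02 CPM at P1, 0.613, 0.865 and 0.552 at P14, and 0.159, 0.321 and 0.134 at P56. Each age was again separate from the next. Its log2 change was −3.12 ± 0.24 at P14 against P1 (adjusted p = 5.5e-06) and −1.72 ± 0.32 at P56 against P14 (adjusted p = 0.00139, edgeR's quasi-likelihood F test, Benjamini-Hochberg adjusted), and −4.83 ± 0.28 over the whole span. At P56 against P1, the log2 change was −3.84 ± 0.24 for Rad51ap1 and −3.06 ± 0.16 for Rad54b.

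Brca2, which prepares single-stranded DNA for strand exchange, took another course. Its levels were 24.2, 25.2 and 24.6 CPM at P1, 9.84, 8.57 and 8.88 at P14, and 8.72, 9.46 and 9.85 at P56. It fell by 1.44 ± 0.08 at P14 against P1 (log2 ± SE, adjusted p = 1.01e-06 by edgeR's quasi-likelihood F test, Benjamini-Hochberg adjusted), and its P56 libraries overlapped the P14 ones. The change in the second interval was higher than that in the first by 1.47 ± 0.15 (adjusted p = 7.15e-05 for the difference, same test). Blm, a helicase that dissolves joined chromosomes, fell by 1.61 ± 0.10 and then by 0.38 ± 0.10.

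A set of paralogs that form complexes in recombination did not move as 1 group. Rad51b fell by 1.13 ± 0.15 and Rad51c by 1.63 ± 0.21 at P14 against P1, while Rad51d fell by 0.35 ± 0.13 and Xrcc2 was not called in any comparison (mean ± SD of 3 libraries 9.87 ± 0.783 CPM at P1, then 9.44 ± 0.816 at P14 and 10.5 ± 0.758 at P56). Xrcc3 was called from P14 on, with a log2 change of −1.01 ± 0.29 at P56 against P14. The Rad51d call (adjusted p = 0.0366 by edgeR's quasi-likelihood F test, Benjamini-Hochberg adjusted) was lost without P1 replicate 1, 2 or 3 or P14 replicate 1 or 3, with log2 values of −0.37 to −0.28. The second fall of Rad51c (−0.64 ± 0.23) was lost without any 1 of 7 libraries, all but P56 replicates 2 and 3, and was −0.39 without P56 replicate 1.

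Wrn, a helicase and exonuclease, fell and rose again. It had 56.2, 55.6 and 54.8 CPM at P1, 49.8, 39.6 and 34.7 at P14, and 59.9, 54.3 and 54.1 at P56. Its log2 change was −0.43 ± 0.11 at P14 against P1 and 0.44 ± 0.11 at P56 against P14. Rad54l2, a helicase that carries the family name, stayed between 54.6 and 63.8 CPM in all 9 libraries with no call. Rad52, which anneals single strands, rose by 0.24 ± 0.09 at P14 against P1. That call (adjusted p = 0.0488 by edgeR's quasi-likelihood F test, Benjamini-Hochberg adjusted) was lost without any 1 of 7 libraries, all but P14 replicate 1 and P56 replicate 1, and the value was 0.13 without P14 replicate 3.

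**Figure D2:**
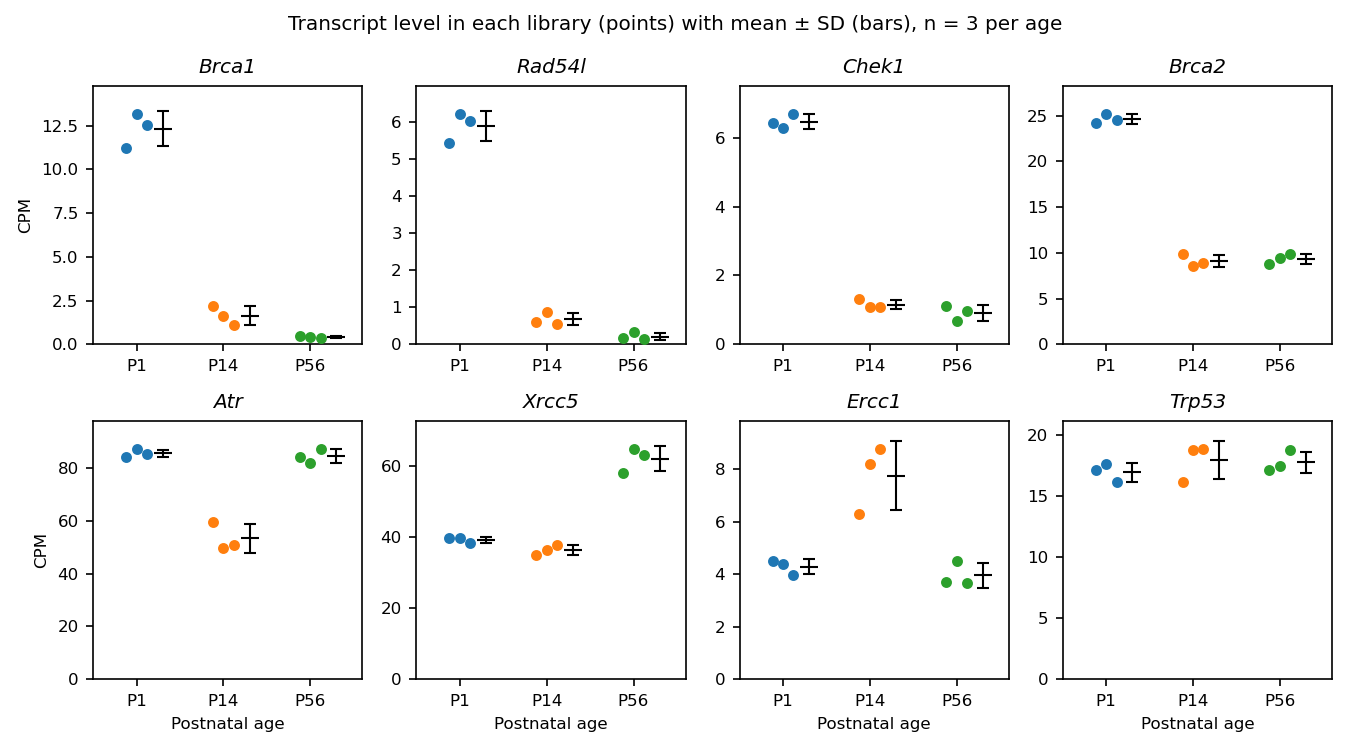
CPM of Brca1, Rad54l, Chek1, Brca2, Atr, Xrcc5, Ercc1 and Trp53 in each library (points) at P1, P14 and P56, with the mean ± SD of 3 libraries. Brca1 and Rad54l descend at each age, Chek1 and Brca2 descend once, Atr dips at P14, Xrcc5 is highest at P56, Ercc1 peaks at P14, and Trp53 stays between 16.1 and 18.9 CPM.

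Most crosslink repair genes fell too. Of 10 members, 8 fell and 1 rose at P14 against P1 (all genes: 27.5% fell, 28.4% rose). After P14, 4 fell and 2 rose at P56 (all genes: 28.5% and 27.5%). At P56 against P1, 8 were lower and none higher (all genes: 31.7% and 30.9%), with a median log2 change of −1.43. Fanci, a subunit of the clamp that marks a crosslink, had 5.53, 6.24 and 5.66 CPM at P1, 0.997, 0.73 and 0.662 at P14, and 0.362, 0.161 and 0.156 at P56. The ages did not overlap, and its log2 changes were −2.86 ± 0.24 (adjusted p = 9.8e-06) and −1.81 ± 0.31 (adjusted p = 0.000944) by edgeR's quasi-likelihood F test, Benjamini-Hochberg adjusted. Brip1, a helicase bound by Brca1, had 16.1, 16.2 and 17.6 CPM at P1, 5.52, 3.65 and 3.92 at P14, and 2.74, 3.01 and 2.94 at P56. Its second fall was −0.59 ± 0.15, and −0.39 without P14 replicate 1.

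The core complex, which ubiquitinates Fanci and its partner Fancd2, was not uniform (Fancd2 was not analysed here). Fanca had 10.8, 12.6 and 11.6 CPM at P1, 2.35, 2.41 and 2.65 at P14, and 2.2, 2.73 and 3.03 at P56. Its fall of 2.24 ± 0.14 on the log2 scale (adjusted p = 1.33e-06, edgeR's quasi-likelihood F test, Benjamini-Hochberg adjusted) was thus over by P14, with a value of 0.10 ± 0.14 after it. Fancb, Fancg and Fancc fell by 1.16 ± 0.24, 1.05 ± 0.26 and 0.96 ± 0.10 at P14 against P1. Fancl, the ubiquitin ligase of the complex, and Fancm, its DNA translocase, fell by 0.84 ± 0.07 and 0.99 ± 0.07 and then rose by 0.27 ± 0.07 and 0.32 ± 0.07. Fancf, at 0.331 to 1.05 CPM, was called in no comparison. Fance, the adaptor for the clamp, rose by 0.35 ± 0.10 and then fell by 0.26 ± 0.10, and the second call (adjusted p = 0.0458 by the same test) was lost without any 1 of 8 libraries, all but P14 replicate 1, with log2 values of −0.29 to −0.21.

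Promoter sequence was examined for words bound by the E2F factors, which drive many replication genes in cycling cells. RefSeq promoters (GRCm38.p6) matched 46 of the 58 members, and the 250 bases before the transcript start were searched on both strands for TTTGGCGC, TTTGCCGC, TTTCGCGC and TTTCCCGC, which share a frame and differ in their middle letters. One of these words stood in 6 of 46 members (13%), Msh5, Fancg, Chek2, Brca2, Msh3 and Xrcc6. It stood in 583 of 27025 genes with a RefSeq promoter (2.16%), which include genes not tested here. The annotated gene covers 123 of the 250 bases in Msh5 and 205 in Fancg, and their E2F words lie in that part. The first 25 bases after the start matched an annotated transcript in 41 of the 46 members. Among matched members lower by a log2 of at least 2 at P56 against P1 the word stood in 1 of 10 (10.0%), Msh5. Among the other matched members it stood in 5 of 36 (13.9%). Members without a RefSeq promoter, such as Rad54b (−3.06 at P56 against P1), were not searched. The CCAAT word bound by NF-Y stood in 27 members (58.7%, beside 37.5% of genes), and TTTGAA, found in cell cycle promoters, in 2 (4.35%, beside 18.3%). In Msh3 a pair of the E2F words overlapped. A match describes the letters only.

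Chek2 and Brca2 are shown because both fell by P14 and hold the word TTTCCCGC on the minus strand. Their windows lie on the plus strand at chr5:110839733-110839982 for Chek2, which reaches 4 bases into the annotated gene, and at chr5:150522371-150522620 for Brca2. Capitals mark the E2F word, read as GCGGGAAA, and the CCAAT word, read as ATTGG. In Chek2 the E2F word begins 152 bases and the CCAAT words 186 and 26 bases before the start, and in Brca2 the E2F word begins 168 bases before it.
Chek2: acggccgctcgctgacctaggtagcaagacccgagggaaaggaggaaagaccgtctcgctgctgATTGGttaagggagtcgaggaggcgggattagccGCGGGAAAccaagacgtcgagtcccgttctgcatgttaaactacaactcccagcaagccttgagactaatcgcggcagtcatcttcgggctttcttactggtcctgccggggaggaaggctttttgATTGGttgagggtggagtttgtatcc
Brca2: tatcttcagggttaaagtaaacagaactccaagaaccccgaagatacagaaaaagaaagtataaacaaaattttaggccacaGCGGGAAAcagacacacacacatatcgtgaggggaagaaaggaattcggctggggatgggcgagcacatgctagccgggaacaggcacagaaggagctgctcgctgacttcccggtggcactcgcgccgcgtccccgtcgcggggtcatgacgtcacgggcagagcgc

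Among checkpoint genes the effector kinases fell and the sensor kinases were lowest at P14. Of 7 members, 5 fell and none rose at P14 against P1 (all genes: 27.5% fell, 28.4% rose). After P14, 3 rose and none fell at P56 (all genes: 27.5% rose, 28.5% fell). Chek1, the effector kinase of Atr, had 6.42, 6.29 and 6.7 CPM at P1, 1.3, 1.08 and 1.08 at P14, and 1.11, 0.666 and 0.958 at P56. It fell by 2.48 ± 0.18 at P14 against P1 (log2 ± SE, adjusted p = 3.46e-06, edgeR's quasi-likelihood F test, Benjamini-Hochberg adjusted). Its value at P56 against P14 was −0.34 ± 0.20 (adjusted p = 0.164, same test), with overlapping libraries.

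Chek2, the effector kinase of Atm, had 3.72, 4.23 and 4.41 CPM at P1, 3.55, 2.03 and 1.13 at P14, and 1.68, 1.49 and 1.45 at P56. The P14 libraries reached from near the P1 level to below every P56 library. The fall by P14 of 0.87 ± 0.31 (adjusted p = 0.0374, edgeR's quasi-likelihood F test, Benjamini-Hochberg adjusted) was lost without any 1 of 7 libraries, all but P14 replicate 1 and P56 replicate 1. It was −1.38 without P14 replicate 1 and −0.56 without P14 replicate 3. At P56 against P1, Chek2 was lower by a log2 change of −1.42 ± 0.32 (adjusted p = 0.00326). Rad18, a ubiquitin ligase for stalled replication forks, had 16.6, 17.1 and 17.9 CPM at P1, 7.77, 5.3 and 4.28 at P14, and 5.87, 3.88 and 4.17 at P56, so that P14 and P56 overlapped. It fell by 1.57 ± 0.21 at P14 against P1.

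Atr, which senses stalled replication forks, had 84.5, 87.3 and 85.4 CPM at P1, 59.7, 49.8 and 50.9 at P14, and 84.4, 82.2 and 87.6 at P56. It fell by 0.68 ± 0.07 at P14 against P1 (adjusted p = 4.08e-05) and rose by 0.66 ± 0.07 at P56 against P14 (adjusted p = 6.09e-05), and its value at P56 against P1 was −0.02 ± 0.07 (adjusted p = 0.847, all by edgeR's quasi-likelihood F test, Benjamini-Hochberg adjusted). The P1 and P56 libraries overlapped, and both lay above every P14 library. Atm, which senses double-strand breaks, had 51.4, 52.7 and 52.1 CPM at P1, 39.5, 33.4 and 34.5 at P14, and 50.7, 47.5 and 51.4 at P56. Its changes were −0.54 ± 0.07 and 0.48 ± 0.07, with −0.06 ± 0.07 over the whole span.

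Rad17, which loads the checkpoint clamp beside Atr, had 28.2, 30.7 and 29.6 CPM at P1, 27.5, 25.7 and 26 at P14, and 46.1, 43.4 and 39.3 at P56. Its P56 libraries stood above all others, with a rise of 0.70 ± 0.07 against P14 (adjusted p = 5.41e-05 by edgeR's quasi-likelihood F test, Benjamini-Hochberg adjusted). Trp53, which encodes p53, had 17.1, 17.6 and 16.1 CPM at P1, 16.2, 18.8 and 18.9 at P14, and 17.1, 17.4 and 18.8 at P56. The ages overlapped, and no difference among them was called (adjusted p = 0.625 for any age, same test). Its log2 values were 0.08 ± 0.08 at P14 against P1 and −0.01 ± 0.09 at P56 against P14.

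Most break sensing and end joining genes fell by P14 and rose after it. Of 7 members, 5 fell and none rose at P14 against P1 (all genes: 27.5% fell, 28.4% rose). After P14, 6 rose and none fell at P56 (all genes: 27.5% rose, 28.5% fell). Mre11a, Rad50 and Nbn encode the complex that first binds a break. Rad50 had 28.8, 30.2 and 28.5 CPM at P1, 18.1, 18.1 and 15.3 at P14, and 18, 18.5 and 19.8 at P56, and fell by 0.76 ± 0.08 at P14 against P1 with a value of 0.13 ± 0.08 after it. Mre11a fell by 0.39 ± 0.06 and rose by 0.24 ± 0.06. Nbn fell by 0.58 ± 0.08 and rose by 0.27 ± 0.08, and the rise (adjusted p = 0.0158 by edgeR's quasi-likelihood F test, Benjamini-Hochberg adjusted) was lost without P14 replicate 2 (adjusted p = 0.0602, log2 0.21) or without P56 replicate 1 (adjusted p = 0.0526, log2 0.22).

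Trp53bp1, which shields ends from resection, had 113, 113 and 108 CPM at P1, 74.8, 80.6 and 85.5 at P14, and 91, 99.5 and 95.9 at P56. The ages did not overlap. Xrcc4, the partner of the end joining ligase, had 108, 109 and 109 CPM at P1, 74.4, 60.9 and 58.6 at P14, and 111, 95.5 and 96.2 at P56. It fell by 0.75 ± 0.09 (adjusted p = 0.000121) and rose by 0.64 ± 0.09 (adjusted p = 0.000333), both by edgeR's quasi-likelihood F test, Benjamini-Hochberg adjusted, and at P56 its libraries overlapped those of P1.

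Xrcc5 and Xrcc6 encode the Ku80 and Ku70 subunits that cap broken ends. Xrcc5 had 39.7, 39.7 and 38.3 CPM at P1, 34.8, 36.3 and 37.8 at P14, and 58.1, 64.9 and 63.1 at P56. Its value at P14 against P1 was −0.11 ± 0.06 (adjusted p = 0.151), and it rose by 0.77 ± 0.06 at P56 against P14 (adjusted p = 1.03e-05, both by edgeR's quasi-likelihood F test, Benjamini-Hochberg adjusted). Xrcc5 at P56 was 158% of its P1 mean, the highest share among the 58 members. Xrcc6 had 10.2, 10.8 and 10.4 CPM at P1, 10.9, 11.2 and 11.5 at P14, and 11.9, 13.5 and 13.8 at P56. Its rise after P14 (0.22 ± 0.08, adjusted p = 0.0471) was lost without any 1 of 8 libraries, all but P56 replicate 1, with log2 values of 0.18 to 0.24, while its rise at P56 against P1 was 0.32 ± 0.08 (adjusted p = 0.00744).

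**Figure D3:**
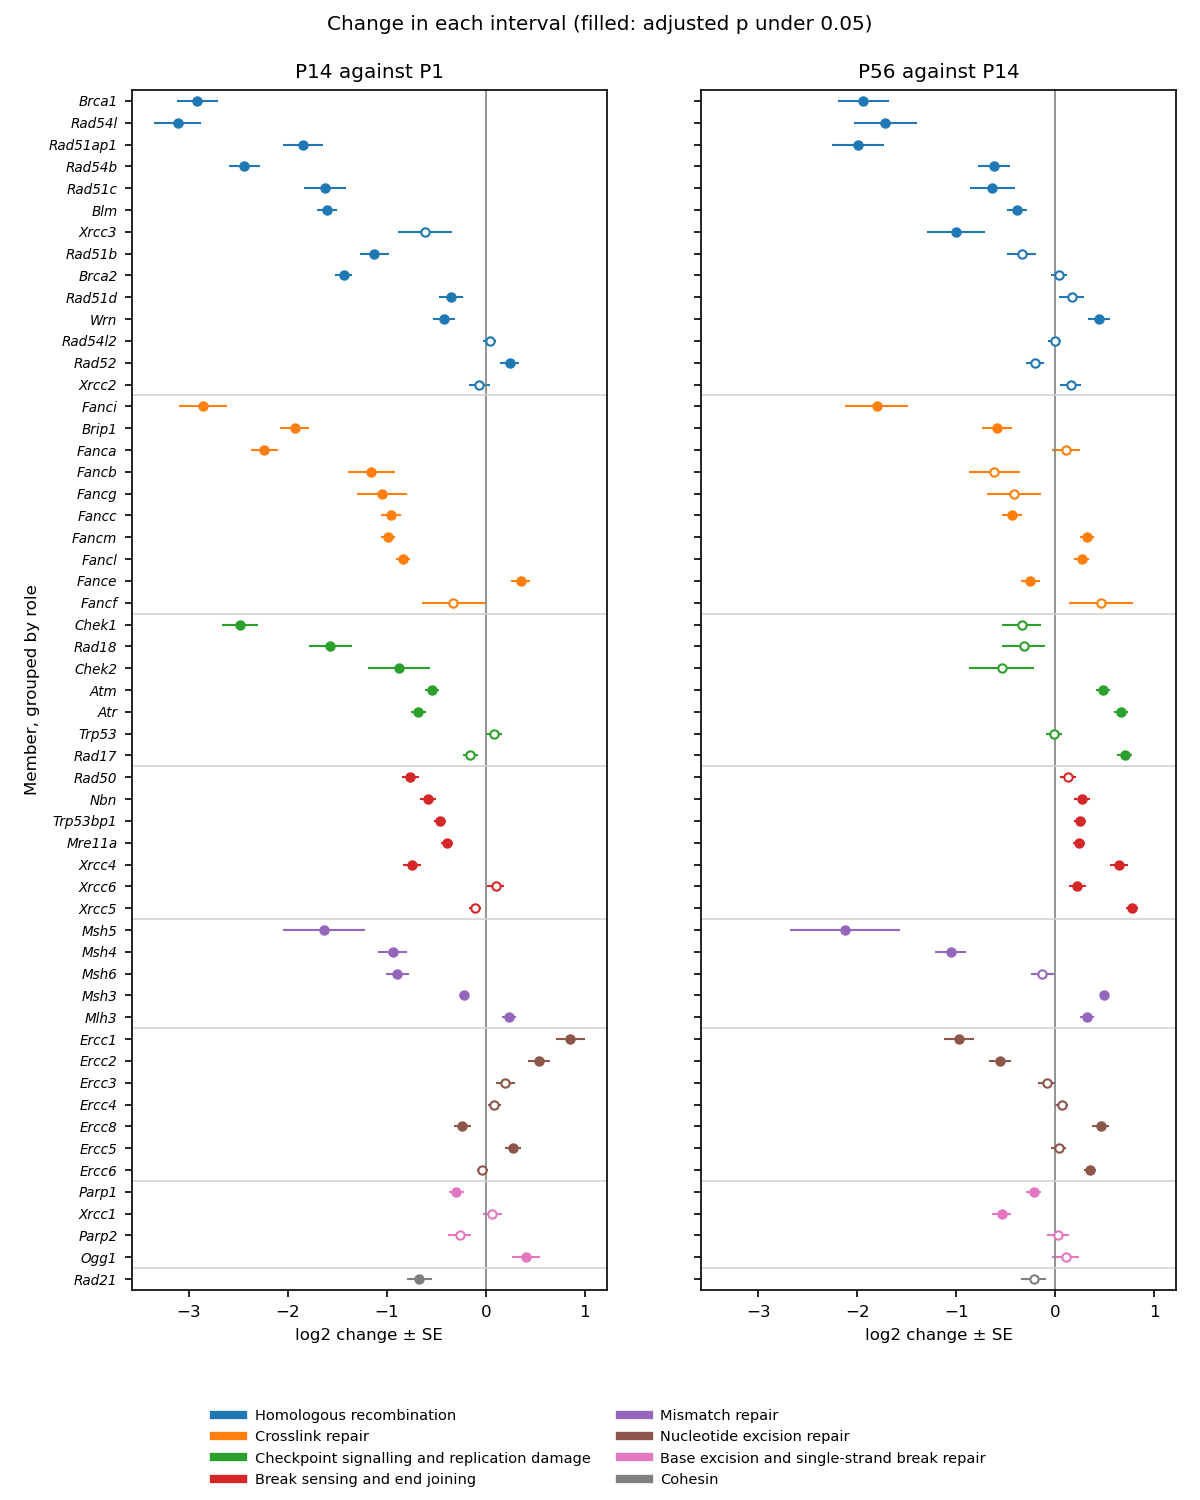
Log2 change ± SE of 55 members, by role, at P14 against P1 and at P56 against P14, with filled points for adjusted p under 0.05. Most filled points lie below 0 in the first interval, down to −3.12 for Rad54l, and on both sides of 0 in the second, up to 0.77 for Xrcc5.

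The difference between the intervals was itself tested, as the change from P14 to P56 minus that from P1 to P14. It was called in 33 members (56.9%, against 50% of all genes tested), higher in 28 (48.3%, against 24.1%) and lower in 5 (8.62%, against 26%). It was higher by a log2 of at least 1 in 13 (22.4%, against 9.72%) and lower by as much in 2 (3.45%, against 18%). The highest values were those of Fanca (2.34 ± 0.25), Chek1 (2.14 ± 0.33) and Rad54b (1.82 ± 0.28), and Atr and Xrcc4 stood at 1.35 ± 0.13 and 1.39 ± 0.17. The lowest were those of Ercc1 (−1.83 ± 0.25) and Ercc2 (−1.10 ± 0.19). Both comparisons share the P14 libraries.

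Mismatch repair genes moved in both directions. Of 7 members, 6 fell and 1 rose at P14 against P1 (all genes: 27.5% fell, 28.4% rose). After P14, 2 fell and 3 rose at P56 (all genes: 28.5% and 27.5%). Msh4 and Msh5 encode the pair that acts on crossovers in meiosis. Msh4 had 4.68, 4.62 and 4.21 CPM at P1, 2.1, 2.81 and 2.12 at P14, and 1.06, 1.13 and 1.18 at P56, with log2 changes of −0.94 ± 0.15 and −1.06 ± 0.16. Msh5 had 2.39, 1.72 and 1.82 CPM at P1, 0.997, 0.487 and 0.414 at P14, and 0.204, 0.207 and 0.0223 at P56, and stood at 7.3% of its P1 mean by P56. Neither gene's ages overlapped.

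Msh6 serves the recognition of single mismatches and Msh3 that of longer loops. Msh6 had 14.1, 15.5 and 13.9 CPM at P1, 8.36, 7.46 and 7.61 at P14, and 7.2, 8.06 and 6.13 at P56. It fell by 0.89 ± 0.11 at P14 against P1, and both later ages overlapped below P1. Msh3 had 108, 114 and 111 CPM at P56, above all P1 libraries (92.6, 92.7 and 89.1), and a rise of 0.50 ± 0.05 against P14 (adjusted p = 3.94e-05 by edgeR's quasi-likelihood F test, Benjamini-Hochberg adjusted). Mlh3, a MutL homolog that acts in meiosis, rose by 0.23 ± 0.07 and 0.32 ± 0.07. The first rise was lost without P1 replicate 3 or P14 replicate 3 (adjusted p = 0.057 and 0.0724 by the same test, log2 0.19 to 0.20).

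Nucleotide excision repair genes did not share the fall. Of 7 members, 1 fell and 3 rose at P14 against P1 (all genes: 27.5% fell, 28.4% rose). After P14, 2 fell and 2 rose at P56, close to the shares of all genes (28.5% and 27.5%). None was lower and 3 were higher at P56 against P1 (all genes: 31.7% and 30.9%). Ercc1, a subunit of the nuclease that cuts beside the lesion, had 4.51, 4.4 and 3.96 CPM at P1, 6.29, 8.19 and 8.8 at P14, and 3.71, 4.5 and 3.65 at P56. P14 stood above both other ages, which overlapped each other. Ercc1 rose by 0.85 ± 0.15 at P14 against P1 (adjusted p = 0.000867) and fell by 0.97 ± 0.15 at P56 against P14 (adjusted p = 0.000454), both by edgeR's quasi-likelihood F test, Benjamini-Hochberg adjusted.

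Ercc4, the catalytic partner of Ercc1, did not follow it, with 19.9, 20.4 and 20.1 CPM at P1, 22.5, 20.9 and 20.6 at P14, and 21.7, 22.2 and 22.9 at P56. Its log2 values were 0.08 ± 0.07 and 0.06 ± 0.07 in the intervals, neither called. Ercc2, a helicase of the transcription factor TFIIH, rose by 0.54 ± 0.11 and fell by 0.56 ± 0.11, while the other TFIIH helicase, Ercc3, was called in no comparison (16.4 ± 0.822 CPM at P1, then 18.9 ± 1.06 at P14 and 17.8 ± 1.83 at P56). Whether Ercc1 and Ercc4, or Ercc2 and Ercc3, changed by different amounts was not tested.

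Ercc6 and Ercc8 act where RNA polymerase stalls at a lesion. Ercc6 had 61.7, 64.2 and 60.4 CPM at P1, 57.7, 60.4 and 63.4 at P14, and 74.7, 79.4 and 77.3 at P56, a rise of 0.35 ± 0.06 after P14 (adjusted p = 0.000579 by edgeR's quasi-likelihood F test, Benjamini-Hochberg adjusted). Ercc8 rose by 0.46 ± 0.08 after P14. Its fall before P14 (−0.24 ± 0.08) was lost without P1 replicate 1 or 3 or P14 replicate 2 or 3 (adjusted p = 0.0517 to 0.119), and its rise at P56 against P1 (0.22 ± 0.08) without any P1 replicate or P56 replicate 2 or 3 (adjusted p = 0.0518 to 0.144). Ercc5, the other nuclease, rose by 0.27 ± 0.08 at P14 against P1, a call lost without P1 replicate 1 (adjusted p = 0.0597, log2 0.24).

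Base excision repair held 4 members, of which 1 fell and 1 rose at P14 against P1 (all genes: 27.5% and 28.4%). After P14, 2 fell and none rose at P56 (all genes: 28.5% and 27.5%). Parp1, which detects single-strand breaks, had 31.8, 32.3 and 31.8 CPM at P1, 23.8, 27.5 and 26.7 at P14, and 21.2, 22.5 and 23.3 at P56. The ages did not overlap, and the log2 change at P56 against P1 was −0.52 ± 0.07 (adjusted p = 0.00016 by edgeR's quasi-likelihood F test, Benjamini-Hochberg adjusted). Its second fall (−0.22 ± 0.07) was lost without P14 replicate 2 or 3 or P56 replicate 1 or 2 (adjusted p = 0.0598 to 0.1, log2 −0.23 to −0.18). Xrcc1, the scaffold that Parp1 recruits, fell by 0.54 ± 0.10 after P14, while Parp2 was called in no comparison (18.7 ± 1.15 CPM at P1, then 15.5 ± 2.45 at P14 and 15.8 ± 0.926 at P56).

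Ogg1, the glycosylase for oxidized guanine, had 2.89, 2.98 and 2.85 CPM at P1, 3.76, 3.68 and 4.11 at P14, and 3.56, 4.87 and 4.01 at P56. P14 and P56 overlapped and both stood above P1. The rise at P56 against P1 was 0.51 ± 0.14 (adjusted p = 0.00796 by edgeR's quasi-likelihood F test, Benjamini-Hochberg adjusted). That at P14 against P1 (0.41 ± 0.14) was lost without P1 replicate 1, 2 or 3 or P14 replicate 3 (adjusted p up to 0.0808, same test). Without P14 replicate 2 the adjusted p lay just under the threshold and rounds to 0.05. Leaving out any 1 of these 5 libraries gave log2 values of 0.36 to 0.44. Rad21, the cohesin subunit that holds sister chromatids together, had 46.7, 50 and 53.2 CPM at P1, 37.3, 29.2 and 27.3 at P14, and 30.7, 25.9 and 24 at P56. It was lower at both later ages than at P1, by log2 changes of −0.67 ± 0.13 at P14 and −0.89 ± 0.13 at P56.

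A wider list of 105 repair, checkpoint, p53 and cohesin genes outside the members, of which 102 were tested, gave 54 falls and 16 rises at P14 against P1 (52.9% and 15.7%, against 27.5% and 28.4% of all genes tested). At P56 against P14 it gave 26 falls and 28 rises (25.5% and 27.5%), close to the 28.5% and 27.5% of all genes. At P56 against P1 there were 51 falls and 21 rises (50% and 20.6%, against 31.7% and 30.9%). The median log2 changes were −0.32, 0.01 and −0.24. Bard1, the partner of Brca1, had 39, 42.2 and 42.3 CPM at P1, 6.82, 5.14 and 5.02 at P14, and 4.96, 5.85 and 4.63 at P56. Exo1, which resects ends for recombination, fell by 3.13 ± 0.29 and 2.68 ± 0.44, and Clspn, the adaptor of Chek1, fell by 3.04 ± 0.31 and 2.99 ± 0.46. Neil3, a glycosylase of replicating cells, was lower by a log2 change of −6.71 ± 0.31 at P56 against P1.

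The end joining kinase Prkdc, which Ku recruits, had 95.1, 98.3 and 93.2 CPM at P1, 75.4, 76 and 78.2 at P14, and 155, 153 and 151 at P56, so that its P56 libraries were above all others as those of Xrcc5 were. Polq, the polymerase of a second end joining route, had 15.9, 17 and 16.7 CPM at P1, 5.29, 4.65 and 5.27 at P14, and 22.1, 22.4 and 25.2 at P56. Its rise of 2.20 ± 0.09 at P56 against P14 had an adjusted p of 3.36e-07 by edgeR's quasi-likelihood F test, Benjamini-Hochberg adjusted. Both of these genes fell before P14 and stood above their P1 level at P56.

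Of 19 tested targets and regulators of p53, 10 rose and 2 fell at P14 against P1 (52.6% and 10.5%, against 28.4% and 27.5% of all genes tested). At P56 against P14 5 rose and 5 fell (26.3% each), close to the shares of all genes (27.5% and 28.5%). At P56 against P1 9 were higher and 6 lower (47.4% and 31.6%, against 30.9% and 31.7%). Cdkn1a, the cell cycle inhibitor p21, had 4.35, 3.87 and 4.09 CPM at P1, 17.7, 18.7 and 14.8 at P14, and 1.29, 1.88 and 1.09 at P56. It rose by 2.06 ± 0.17 (adjusted p = 8.21e-06) and then fell by 3.59 ± 0.19 (adjusted p = 1e-06), both by edgeR's quasi-likelihood F test, Benjamini-Hochberg adjusted, while Trp53 itself was not called. Fas, a death receptor, rose by 2.15 ± 0.12 at P14 against P1 and stood at 18.2, 16.2 and 13.5 CPM at P56, overlapping P14. Ccng1 and Sesn1 were higher at P56 than at P1 by 1.25 ± 0.07 and 1.16 ± 0.08, and Phlda3 was lower, with a log2 change of −2.65 ± 0.30.

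Genes of cycling cells fell in both intervals as well. Of 21, 20 fell at P14 against P1 (95.2%, against 27.5% of all genes tested), with a median log2 change of −2.28. At P56 against P14, 18 fell and 1 rose (85.7% and 4.76%, against 28.5% and 27.5%). Their summed level was 222 to 244 CPM at P1, then 66.9, 55.6 and 43.8 CPM at P14, and 31.6 to 35.3 CPM at P56. Mki67, a marker of cells in cycle, had 51.8, 49.6 and 49 CPM at P1, 9.74, 7 and 4.08 at P14, and 0.861, 0.918 and 0.267 at P56. The part of cycling cells in the members' changes was not tested.

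Markers of other cell types also differed by age. Of 43 markers of fibroblasts, endothelium, leukocytes, smooth muscle, pericytes and epicardium, 40 were measured. At P14 against P1, 31 rose and 2 fell, where 28.4% of all genes tested rose and 27.5% fell. At P56 against P14, where 27.5% of all genes rose and 28.5% fell, none of the markers rose and 30 fell. A marker score, their mean log2 CPM, was 1.73, 1.35 and 1.94 at P1, 3.87, 3.29 and 2.54 at P14, and 1.70, 1.06 and 0.64 at P56. P14 was above both other ages, which overlapped, and its replicate 1 held the most. The summed level of 10 fibroblast markers was 150 to 310 CPM at P1, then 196 to 776 CPM at P14, and 31.4 to 81.6 CPM at P56, and that of 10 endothelial markers was 72.3 to 103 CPM, 220 to 561 CPM and 37.7 to 94.3 CPM at the same ages. The part of these cells in the members' changes was not tested beyond the fit that follows. In 21 of 58 members the P14 libraries stood in the order of their marker scores, and in 14 in the reverse order. The libraries of P14 also differed more than those of P1, with more than a 1.5-fold range in 0 members at P1, 13 at P14 and 10 at P56. These orders and ranges were counted in the members only, not over all genes.

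With the marker score added to the fit as a covariate, 34 members fell and 7 rose at P14 against P1. With age alone these counts were 38 and 7. Over all 15817 genes there were 3921 falls and 3865 rises with the score, against 4350 and 4493 with age alone. Of the 45 called values of members, 11 became more than 1.5 times as large and 4 shrank by more than 1.5 times. Among the larger ones, Chek2 stood at −2.06 with the score and −0.87 with age alone, Msh5 at −3.12 and −1.63, Fancg at −1.86 and −1.05, and Wrn at −0.84 and −0.43. The falls of Ercc8 (−0.16 with the score, −0.24 with age alone), Msh3 (−0.20 and −0.22), Parp1 (−0.12 and −0.30) and Rad51d (−0.43 and −0.35) were no longer called. At P56 against P14 the calls of members dropped to 7 falls and 10 rises, against 18 and 17 with age alone. Calls over all 15817 genes dropped as well, to 2439 falls and 2552 rises from 4504 and 4356. Of the recombination and crosslink genes that fell after P14, Brca1 then stood at −1.03 (adjusted p = 0.0967), Rad51ap1 at −0.97 (adjusted p = 0.128), Fanci at −1.09 (adjusted p = 0.167) and Rad54b at −0.05 (adjusted p = 0.923), by edgeR's quasi-likelihood F test, Benjamini-Hochberg adjusted. The falls of Blm, Brip1 and Fancc also shrank and lost the call. That of Msh5 did too, at −0.22 with the score and −2.13 with age alone. Rad54l lost the call but hardly moved, at −1.67 with the score and −1.72 with age alone. Rad51c (−0.94 and −0.64) and Fance (−0.44 and −0.26) lost the call with larger falls. Msh4, Xrcc3, Ercc1, Ercc2, Xrcc1 and Parp1 remained lower with a call. Atr, Atm, Xrcc4, Xrcc5, Rad17, Nbn, Msh3 and Wrn remained higher with one. The rises of Trp53bp1 (0.01 with the score, 0.25 with age alone), Ercc6 (0.16 and 0.35), Ercc8, Mlh3, Mre11a and Fancm shrank and lost the call. Fancl (0.36 and 0.27) lost it with a larger rise, and Xrcc6 (−0.02 and 0.22) lost it and reversed. Over the whole span, at P56 against P1, the counts of members were 32 falls and 8 rises, against 31 and 9 with age alone. All genes gave 5237 falls and 5121 rises with the score, against 5016 and 4888.

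**Figure D4:**
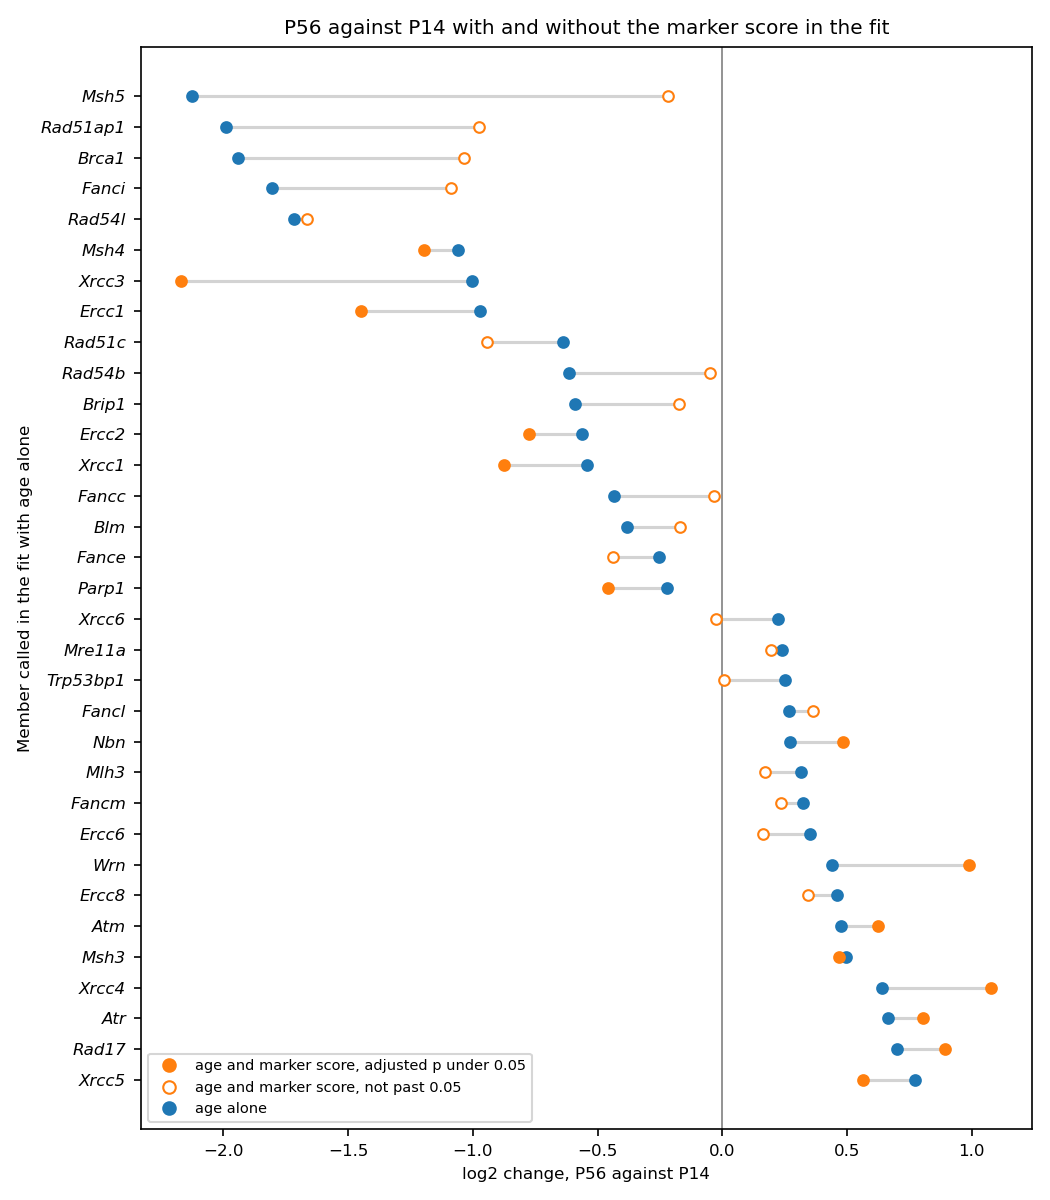
Log2 change at P56 against P14 of 33 of the 35 members called in that comparison, with age alone and with age and the marker score in the fit, with filled points for adjusted p under 0.05. Several falls of recombination and crosslink genes shrink and lose the call, as do rises such as those of Trp53bp1, Ercc6 and Mlh3. The rises of Atr, Atm, Xrcc4, Xrcc5 and Rad17 keep it.

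Some members share genomic sequence with another coding gene, which applies to 19 of the 58, and the strand setting of the counting is not given in the sources used. Polg, opposite Fanci, had mean levels at P1, P14 and P56 of 24.1, 29.3 and 24.6 CPM. Cd3eap, opposite Ercc1, had no call in any comparison. Msh3 is also among the 19. Tmem167, opposite Xrcc4, fell by 0.82 at P14 against P1, and Klc1, opposite Xrcc3, fell by 1.06 at P56 against P14, so the values of Xrcc4 and Xrcc3 are uncertain to that extent.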

How the data were processed

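The deposited table of the authors holds whole-number counts for each gene in each library. The tools named in the submitters' processing notes are featureCounts 1.4.2, STAR 2.4.0g1 and bcl2fastq 2.17.1.14, with genome build GRCm38. The counting mode (exons or whole genes) and its strand setting are not given in the sources used. The smallest mean count of a gene was 10 per library.

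The counts were fitted in R 4.3.3 with edgeR 4.0.16. The function filterByExpr removed 7 genes and left 15817, libraries were scaled by TMM, and CPM were computed from the counts with those library sizes. One quasi-likelihood fit (glmQLFit, glmQLFTest) held all 9 libraries with age as its term (common dispersion 0.0192, prior degrees of freedom 3.68), and p-values were adjusted by Benjamini-Hochberg over all 15817 genes. Pairs of libraries of an age differed by more than counting error (chi-square per degree of freedom 5.56 to 104), so none was taken as a duplicate. Replicates are called biological in the design text, each of pooled hearts.

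Counts cover all 58 members, and a few members and other genes are not reported here singly. Log2 changes were given for called members and for up to 3 others per role and comparison with the most counts, and for other genes up to 3 per list and direction with the largest called change. The members, gene lists and rules were chosen with earlier results of these data known. Gene positions came from GENCODE M21, which holds 15758 of the identifiers and all 58 members, and promoters from RefSeq (GRCm38.p6). Promoter windows that run more than 30 bases into the annotated gene were not shown. The fit was tested on simulated data. Alternatives were DESeq2 1.42.0, another scaling, other filters, a replicate block, only the compared ages, a marker score as covariate, and leaving out each library.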

Additional observations from a re-analysis of the deposited data

How the results depend on the processing

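Of 159 values of single members, all 159 kept their direction and side of the threshold with RLE size factors and without a filter on low counts, 158 did with DESeq2, and 121 did with the marker score as covariate, where 31 lost the call and 7 reversed. With that score the members called at P56 against P14 were 7 lower and 10 higher, beside 2439 and 2552 of all 15817 genes. The reversed log2 value at P14 against P1 was 0.0438 for Xrcc5. At P56 against P14 the reversed values were 0.112 for Chek1, −0.442 for Fanca and −0.0234 for Xrcc6. At P56 against P1 they were 0.0195 for Atr, −0.0144 for Trp53 and 0.0025 for Xrcc4. The cause was not tested. With a filter of a mean of at least 1 CPM the value of Wrn at P56 against P1 was −0.0091.

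Leaving out each library in turn gave 34 to 39 members lower and 4 to 7 higher at P14 against P1 (4 without P1 replicate 1, P1 replicate 3 or P14 replicate 3), 15 to 18 lower and 15 to 16 higher at P56 against P14, 31 to 33 lower and 8 to 9 higher at P56 against P1, and 3 to 5 lower and 24 to 33 higher for the difference between the intervals (3 without P14 replicate 2 or 3). Values near 0 that changed sign had ranges of −0.0021 to 0.2221 for Fanca and −0.0839 to 0.0249 for Trp53 at P56 against P14, and of −0.0414 to 0.0041 for Atr and −0.0326 to 0.0397 for Wrn at P56 against P1. The tested differences between intervals of Rad52, Rad54l, Rad51b and Fancc lost the call in 8, 6, 6 and 5 of the 9 leave-outs. Those of Rad18, Fance and Xrcc1 lost it in 2, 1 and 1.

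The ages share replicate numbers, and same-numbered P14 and P56 libraries deviated together for replicates 1 and 3 (correlations 0.493 and 0.364) but not replicate 2 (0.00773). Same-numbered pairs with P1 had correlations of −0.219 to 0.1. Since not every pair exceeded 0.1, they were not taken as pairs. With the replicate number as a block, 38 members fell and 6 rose at P14 against P1, 18 fell and 17 rose at P56 against P14, and 31 fell and 8 rose at P56 against P1. The block ended 4 calls, those of Rad51d and Rad52 at P14 against P1, Xrcc6 at P56 against P14 and Ercc8 at P56 against P1.

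With 3 libraries per age, small changes lie near the limit of what can be called. Members under 1 CPM at P56, such as Msh5 and Rad54l, rest on few counts there.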

Other observations

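Gene length was set beside the level of the gene over all 9 libraries as a description, with no test. Across the 58 members the Spearman correlation between the mean count and the genomic span of the gene was 0.633. With the exonic length it was 0.362. Across 15750 genes tested, with the mean CPM of the ages as the level, the values were 0.489 and 0.526. Genes of 1 library set share depth and base composition and are not independent replicates. Rad51b, Xrcc4, Fancc and Wrn span the longest stretches among the members, and Fancf, Ogg1 and Fancg the shortest.

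Cohesin genes other than Rad21 were measured in 8 of 9 cases. All 8 fell at P14 against P1 (100%, against 27.5% of all genes tested). At P56 against P14, 2 fell and 2 rose (25% each), close to the 28.5% and 27.5% of all genes. At P56 against P1, 5 were lower and none higher (62.5% and 0%, against 31.7% and 30.9%). The calls were by edgeR's quasi-likelihood F test, Benjamini-Hochberg adjusted. Esco2, the acetyltransferase that locks cohesin during replication, had 6.39, 7.49 and 8.21 CPM at P1, 0.715, 0.595 and 0.386 at P14, and 0.317, 0.138 and 0.29 at P56. The ages did not overlap for Esco2.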
